A study of Homo sapiens with 42 samples.

Results

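The D-type cyclins, the kinases they drive and the inhibitors and substrate of those kinases were followed by RNA sequencing in 2 human acute myeloid leukaemia lines. The set holds 9 of the 58869 genes of the count table, taken by symbol: the cyclins CCND1, CCND2 and CCND3, the kinases CDK4 and CDK6, the inhibitors CDKN1B, CDKN2C and CDKN2D, and the substrate RB1. OCI-AML3 cells are labelled NPM1c+, that is, with the mutant cytoplasmic form of nucleophosmin, and NOMO1 cells are labelled KMT2A-r, with a rearranged KMT2A gene. Each line was given DMSO (the solvent control) or the menin inhibitor VTP-50469 at 100 nM, both read at day 3 and at day 6, the MEK inhibitor selumetinib at 100 nM, or both drugs together at day 3 and at day 6. Each of the 14 groups held 3 libraries, 42 in all. Each line is a single established culture, so a line stands for 1 leukaemia and not for its genotype.

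D-type cyclins bind CDK4 or CDK6, and the active pair phosphorylates the retinoblastoma protein RB1, which then releases E2F factors and lets the cell pass from G1 into S phase. CCND1 is a classical target of ERK signalling, which MEK inhibitors block. INK4 proteins such as p18 (CDKN2C) and p19 (CDKN2D) block CDK4 and CDK6 directly, whereas p27 (CDKN1B) binds cyclin-kinase pairs and mainly restrains CDK2. Menin carries KMT2A and its fusions to chromatin, and CDK6 is known as a target of KMT2A fusions in leukaemia.

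The time of selumetinib alone is uncertain in both lines. The treatment protocol, the title of replicate 1 and the count table's column names of all 3 replicates give 1 day, while the titles of replicates 2 and 3 give day 3. DMSO day 3 served as its control, so contrasts that use selumetinib alone, the interaction at day 3 among them, may compare different times. The labels do not say whether the replicates of a group were separate cultures, so p-values measure the spread between these libraries, which may be technical. The 21 OCI-AML3 libraries held 15561248 to 24262960 counts each, the 21 of NOMO1 15264862 to 29168628. The NOMO1 DMSO day 3 libraries stood apart: mitochondrial transcripts took 17.8% ± 0.197 of their counts (SD, n = 3) against 3.17% ± 0.48 at DMSO day 6, and edgeR called 51% of 16561 genes between these controls. Many NOMO1 day 3 and selumetinib results are therefore also given against DMSO day 6. Where no control is named, these results are against DMSO day 3 alone. In OCI-AML3 the mitochondrial share reached 12.3% ± 2.27 in the combination at day 6, against 3.24% ± 0.665 in its DMSO group. MEIS1, a menin target, had a log2 fold change of -6.76 under VTP-50469 at day 6 in NOMO1 and -0.37 in OCI-AML3, and DUSP6, an ERK target, of -3.39 and -1.07 under selumetinib. VTP-50469 day 3 replicate 2 of OCI-AML3 and replicate 1 of NOMO1 lay away from their partners for several of the 9 genes. CDKN2A, an INK4 gene outside the set, had 63 counts in the NOMO1 VTP-50469 day 3 group, all in 1 library. Every other NOMO1 group had 0 counts of it, and the source of these reads was not tested. Of 6 myeloid markers, all 6 passed 1 CPM (counts scaled to library size by TMM) in both lines. Of 6 epithelial and stromal markers 5 passed 1 CPM in each line, with sums of 1.02 to 68.2 CPM over the OCI-AML3 groups and 85.1 to 437 CPM over those of NOMO1. Of 6 T and NK cell markers 4 did so in NOMO1 (sums of 132 to 211 CPM) and 1 in OCI-AML3, where CD3D and CD3G were at 0, and B cell markers summed to 17.7 to 36.6 CPM in NOMO1 with MS4A1 at 0. The part of these markers in the results was not tested.

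On GRCh38 (GENCODE 29) the cyclin genes span chr11:69641087-69654474 (CCND1, plus strand), chr12:4273772-4305350 (CCND2, plus) and chr6:41934933-42050357 (CCND3, minus). CDK4 lies at chr12:57747727-57756013 and CDK6 at chr7:92604921-92836594, both on the minus strand. The inhibitors lie at chr12:12715058-12722371 (CDKN1B, plus), chr1:50960745-50974633 (CDKN2C, plus) and chr19:10566462-10569059 (CDKN2D, minus), and RB1 at chr13:48303726-48599436 (plus).

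Promoter windows from RefSeq (250 bases before to 50 after a start, build GRCh38.p14) matched 7 of the 9 genes in 12 windows; CCND1 and CCND2 had no entry. They are shown as examples for the pair of kinases and for CDKN2D. Capitals mark the motif found. In CDK4 and CDK6 this is the E-box CACGTG, the palindrome bound by MYC and related factors. In CDKN2D it is TTTNNCGC, where N is any base, a loose pattern used here to search for E2F sites. A match is not by itself a site that E2F factors bind. The windows lie on the minus strand at chr12:57752261-57752560 (CDK4), chr7:92836524-92836823 (CDK6) and chr19:10568930-10569229 (CDKN2D) and are printed 5′ to 3′ in the direction of transcription.
CDK4: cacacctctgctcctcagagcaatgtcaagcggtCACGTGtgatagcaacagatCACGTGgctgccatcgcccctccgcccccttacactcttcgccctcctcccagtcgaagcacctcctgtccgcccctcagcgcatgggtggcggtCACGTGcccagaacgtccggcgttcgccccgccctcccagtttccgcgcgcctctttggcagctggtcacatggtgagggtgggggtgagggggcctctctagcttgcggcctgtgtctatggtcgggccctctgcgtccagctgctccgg
CDK6: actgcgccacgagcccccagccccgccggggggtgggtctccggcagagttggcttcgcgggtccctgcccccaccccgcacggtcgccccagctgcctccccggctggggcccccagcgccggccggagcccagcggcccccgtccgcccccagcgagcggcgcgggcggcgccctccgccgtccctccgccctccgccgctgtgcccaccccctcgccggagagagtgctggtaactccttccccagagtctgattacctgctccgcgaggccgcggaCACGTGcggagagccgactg
CDKN2D: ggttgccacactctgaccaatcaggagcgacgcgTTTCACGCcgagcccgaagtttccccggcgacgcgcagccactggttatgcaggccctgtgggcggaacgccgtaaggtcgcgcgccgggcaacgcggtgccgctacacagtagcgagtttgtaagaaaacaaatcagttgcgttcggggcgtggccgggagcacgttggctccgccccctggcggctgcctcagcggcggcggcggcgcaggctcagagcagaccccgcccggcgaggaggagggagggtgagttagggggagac

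The CDK4 window holds 3 E-boxes, whose first bases lie at -216, -196 and -101, counted with the start base as 1 and the base before it as -1. Of 35116 windows of this length 7.26% held at least 1 E-box and 0.094% held at least 3. The first CDK6 window has 1, at 31. The CDKN2D window matches the E2F search pattern at -216, with the letters TTTCACGC, and 6.89% of all windows held a match. Both strands were searched, also for AP-1 (TGANTCA, in 7.71% of windows) and for the cyclic AMP element (TGACGTCA, in 1.85%) with its inner part TGACG (in 24.6%), which overlaps the full element. Other windows held matches too: CDKN2C has an E-box at -220 in one window and at -69 in another, with 4 matches of TGACG over its 3 windows, and RB1 has an AP-1 match (TGAATCA) at -210. The only RB1 window has its start at chr13:48476450, inside the gene, whose span begins at chr13:48303726. The bases at the beginning of that span were not searched. TGACG also stands at 7 in the CDKN1B window and at -74 in the second CDK6 window. No CCND3 window held any of these letters, which says nothing about the factors that bind there.

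In untreated cells the lines differed in how the set was made up. Levels of different genes are compared per kilobase (kb) of exon, here the union of all annotated exons, and the values are means of 3 libraries at DMSO day 6. In OCI-AML3 the highest levels were those of CCND3, at 45.8 ± 1.39 CPM per kb (SD, n = 3), and CDK4, at 40.9 ± 2.23. CDKN1B followed at 23.5 ± 1.45, then CCND1 at 17.1 ± 1.75 and CDK6 at 16.7 ± 0.335. RB1 (10.4 ± 0.565) and CDKN2C (10.3 ± 0.56) stood above CDKN2D (5.2 ± 0.121). CCND1 and CDK6 did not differ beyond their spread, nor did RB1 and CDKN2C. In NOMO1 the order began with CDKN2C at 64.2 ± 4.2 CPM per kb, CDK6 at 63.6 ± 2.66 and CCND3 at 59 ± 1.79, the first pair closer than their spread. CDK4 (29.2 ± 1.73), CDKN1B (24.7 ± 1.65) and RB1 (21.1 ± 2.39) came next, and CCND1 (12.3 ± 1.01) and CDKN2D (11.9 ± 0.778) lay within each other's spread. CCND2 was last in both lines, at 0.0509 ± 0.00856 CPM per kb in OCI-AML3 and 0.129 ± 0.0208 in NOMO1. With the longest transcript in place of the exon union, CCND3 came first in NOMO1 (143 ± 4.33 CPM per kb), ahead of CDKN2C (73.3 ± 4.8) and CDK6 (67.2 ± 2.81), while in OCI-AML3 CCND3 (111 ± 3.37) and CDK4 (62.4 ± 3.4) still led. By either length CDK4 was the more abundant kinase RNA in OCI-AML3 and CDK6 in NOMO1, and CDKN2C RNA was far higher in NOMO1 than in OCI-AML3.

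**Figure D1:**
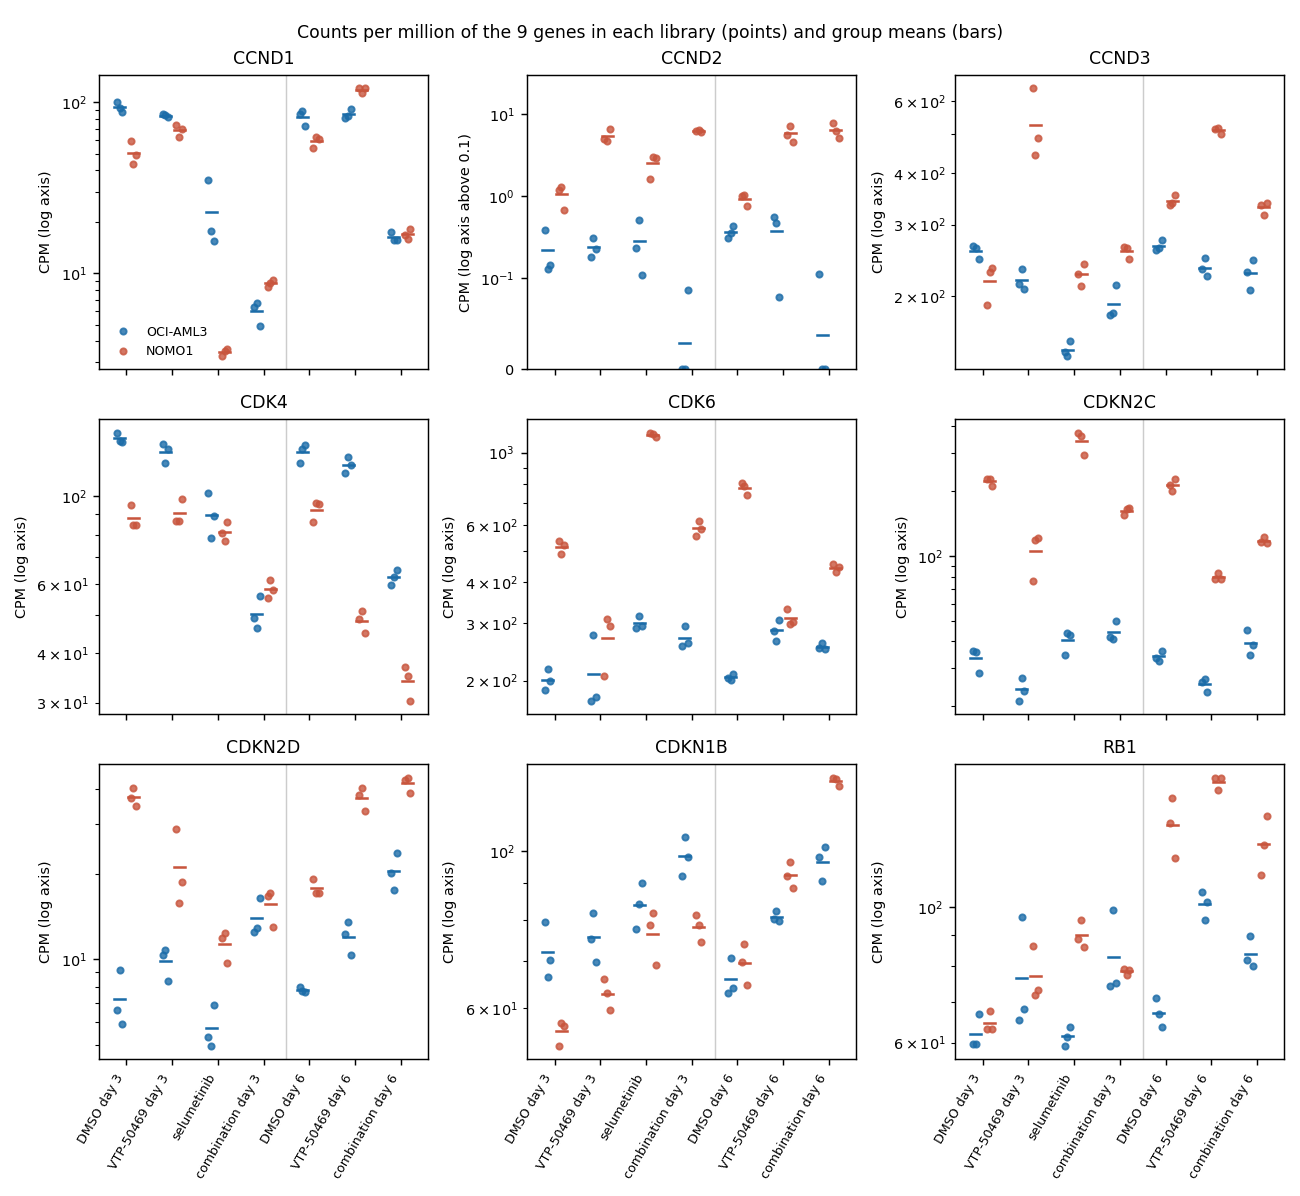
CPM of the 9 genes in each of the 42 libraries (points, log axes, linear below 0.1 for CCND2) and group means (bars), by treatment and day, blue for OCI-AML3 and red for NOMO1; the vertical line parts day 3 and selumetinib from day 6. CCND1 drops in every group with selumetinib in both lines, while CDK6 moves in opposite directions under VTP-50469 at day 6.

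A gene was called when its edgeR adjusted p (quasi-likelihood test, Benjamini-Hochberg over all genes tested) was under 0.05; CCND2 had too few counts to be tested in OCI-AML3, which leaves 8 genes there and 9 in NOMO1. Fewer cells of a kind and less RNA per cell cannot be told apart in these bulk libraries. In OCI-AML3, VTP-50469 against DMSO called 0 of the 8 genes higher and 2 lower at day 3, where 10.9% of all 16384 genes were called, and 4 higher and 1 lower at day 6 (34.7% of all genes). Selumetinib called 1 higher and 3 lower (27.4%). The combination called 5 higher and 3 lower at day 3 (48.1%) and 4 higher and 3 lower at day 6 (49.6%). Between the DMSO days of OCI-AML3 edgeR called none of the 16384 genes (0%; 174 had an unadjusted p under 0.05), so none of the 8. The median log2 fold change of the 8 was 0.41 for the combination at day 3, with 0.03 over all genes, and 0.17 for VTP-50469 at day 6, with 0.01 over all genes.

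In NOMO1, VTP-50469 called 4 of the 9 genes higher and 3 lower at day 3 (52.4% of all 16561 genes) and 6 higher and 3 lower at day 6 (48.8%). Selumetinib called 5 higher and 2 lower (54.1%), and the combination 4 higher and 4 lower at day 3 (58.7%) and 3 higher and 4 lower at day 6 (55.4%). Between the NOMO1 DMSO days 4 of the 9 were higher at day 6 and 1 was lower, with 51% of all genes called. At day 6 every one of the 9 was called under VTP-50469, and its 3 libraries did not overlap those of DMSO for any of the 9, as held for 60.5% of all genes tested. The median log2 fold change of the 9 at day 6 was 0.41 under VTP-50469 and -0.07 under the combination, against -0.01 and -0.00 over all genes.

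Against DMSO day 6, an alternative control for the groups read earlier, the NOMO1 counts were smaller for VTP-50469 day 3 and differed in direction. VTP-50469 day 3 then had 2 of the 9 genes higher (CCND2, CCND3) and 3 lower (CDK6, CDKN2C, RB1), with 27.2% of all genes called. Selumetinib had 3 higher (CDK6, CCND2, CDKN2C) and 4 lower (CCND1, CCND3, CDKN2D, RB1) at 32.2%, and the combination day 3 had 1 higher (CCND2) and 6 lower (CDK4, CDK6, CCND1, CCND3, CDKN2C, RB1) at 45.3%. In OCI-AML3 the change of control mattered less: VTP-50469 day 3 kept 0 higher and 2 lower of 8 (9.95% of all genes), selumetinib had 2 higher and 3 lower (27.5%), CDKN1B being added, and the combination day 3 had 5 higher and 3 lower (47.9%).

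**Figure D2:**
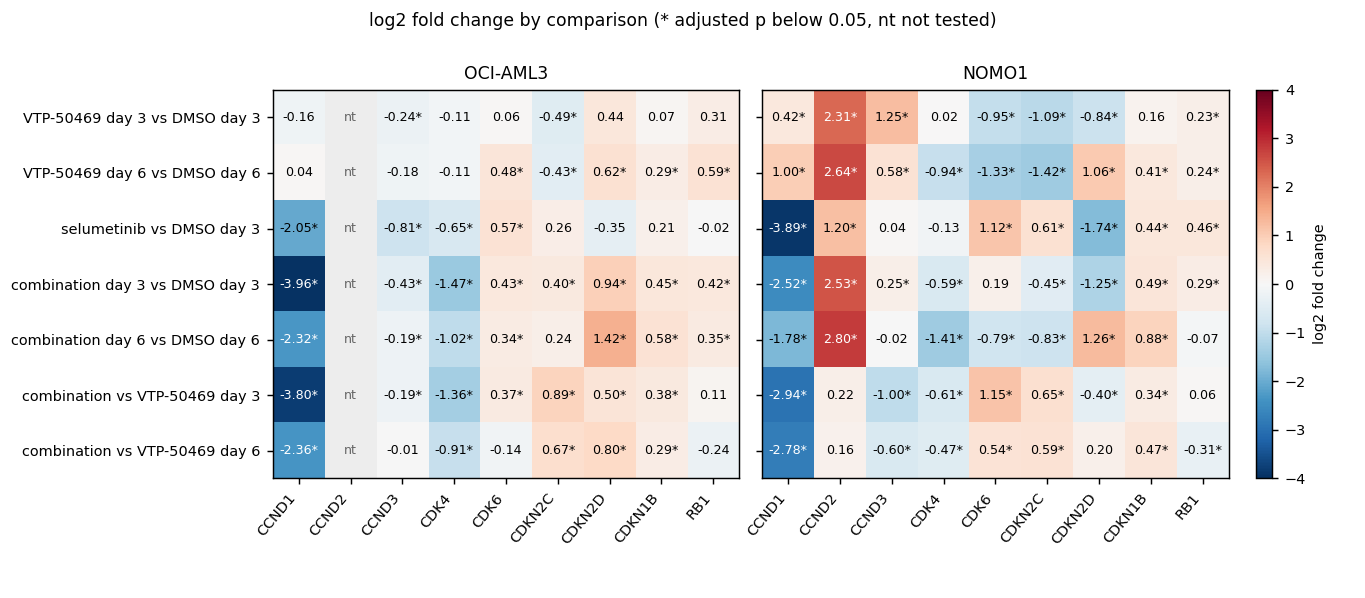
log2 fold change of each gene (columns) in 7 comparisons (rows) for OCI-AML3 (left) and NOMO1 (right), from the fit of each line; red is higher, blue lower, an asterisk marks an adjusted p under 0.05 and nt a gene not tested. The CCND1 column is blue in every comparison with selumetinib, down to -3.96, and CCND2 is red in NOMO1, up to 2.80.

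CCND1, the D-type cyclin most tied to ERK signalling, fell in every group with selumetinib. In OCI-AML3 the DMSO libraries had 99.8, 92.3 and 87.8 CPM at day 3 and 85.8, 88.7 and 72.9 at day 6. Under selumetinib they had 35.3, 17.7 and 15.4 CPM, and under the combination 6.36, 6.66 and 4.93 at day 3 and 17.4, 15.6 and 15.6 at day 6. Every library with selumetinib was below every library without it. Against DMSO the log2 fold change was -2.05 ± 0.208 (SE) for selumetinib (edgeR adjusted p = 9.5e-07), -3.96 ± 0.238 for the combination at day 3 (2.31e-10) and -2.32 ± 0.216 at day 6 (8.8e-08). The highest selumetinib value is that of replicate 1, the one whose title does not read day 3, and without it the log2 fold change was -2.51. VTP-50469 alone left CCND1 at 85.2, 84.1 and 81.5 CPM at day 3 and at 81, 83 and 90.9 at day 6, differences of -0.16 ± 0.195 and 0.04 ± 0.196 on the log2 scale that did not pass the test.

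In NOMO1 CCND1 also fell with selumetinib, and here VTP-50469 alone raised it. DMSO libraries had 59.2, 43.5 and 49 CPM at day 3 and 53.7, 62.9 and 61.2 at day 6. Selumetinib libraries had 3.27, 3.5 and 3.59 CPM, the lowest of the line. The combination gave 8.29, 8.78 and 9.15 CPM at day 3 and 16.6, 15.9 and 18.2 at day 6, so that at both days the combination lay above selumetinib alone with no overlap. VTP-50469 gave 73.5, 62.7 and 69.4 CPM at day 3 and 121, 113 and 121 at day 6. Against DMSO of the same day, the log2 fold change was 0.42 ± 0.0963 at day 3 (edgeR adjusted p = 0.000634) and 1 ± 0.095 at day 6 (1.38e-09). The day 3 call was lost against DMSO day 6 (0.19 ± 0.0953, edgeR adjusted p = 0.137). Selumetinib gave -3.89 ± 0.125 and the combination -2.52 ± 0.108 at day 3 and -1.78 ± 0.102 at day 6; against DMSO day 6 the first pair became -4.11 and -2.75. LTO1, which shares 497 exon bases with CCND1 on the other strand (10.3% of its exon length, reads carry no strand), changed by -0.95 ± 0.184 under selumetinib in NOMO1 and by -0.01 ± 0.145 in OCI-AML3, at 5.3 to 14.9 CPM over all groups.

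CCND3, the most abundant D-type cyclin RNA in both lines, had smaller fold changes than CCND1 in the groups with selumetinib. In OCI-AML3 the DMSO day 3 libraries had 266, 263 and 247 CPM, selumetinib 146, 143 and 156, and the combination 181, 182 and 213 at day 3 and 230, 207 and 246 at day 6. Relative to DMSO this was a log2 fold change of -0.81 ± 0.0736 for selumetinib (edgeR adjusted p = 1.37e-09) and -0.43 ± 0.0731 for the combination at day 3 (1.27e-05). Selumetinib alone was thus lower than the combination, and their libraries did not overlap. The combination at day 6 was called at -0.19 ± 0.0731 (0.0312), a call lost without combination replicate 2 (-0.16) or DMSO replicate 3 (-0.18). VTP-50469 at day 3 was called at -0.24 ± 0.073 (0.0302), lost without DMSO replicate 1 or 2 or VTP-50469 replicate 1 or 3 (-0.21 to -0.23). At day 6 VTP-50469 gave -0.18 ± 0.073, which did not pass, though it did without VTP-50469 replicate 2 (-0.22).

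In NOMO1 VTP-50469 raised CCND3 at both days. Its libraries had 647, 443 and 489 CPM at day 3 and 515, 516 and 500 at day 6, all above DMSO at day 3 (190, 229 and 235) and day 6 (335, 338 and 354). On the log2 scale the rise was 1.25 ± 0.0971 at day 3 (edgeR adjusted p = 3.87e-11; 1.08 without replicate 1, the highest, and 0.61 ± 0.0957 against DMSO day 6) and 0.58 ± 0.0956 at day 6 (1.42e-05). Selumetinib gave 227, 213 and 240 CPM and the combination 264, 262 and 248 at day 3 and 335, 317 and 339 at day 6. Here the choice of control set the direction: against DMSO day 3 selumetinib differed by 0.04 ± 0.0963 and the combination by 0.25 ± 0.0961 (edgeR adjusted p = 0.0286), whereas against DMSO day 6 both were lower, at -0.61 ± 0.0962 and -0.40 ± 0.0957. The call on the combination against DMSO day 3 was also lost without combination replicate 1 (0.24) or 2 (0.23) or DMSO replicate 1 (0.16). At day 6 the combination was at -0.02 ± 0.0955, not passing, and against VTP-50469 it was lower by 1.00 at day 3 and by 0.60 at day 6 on the log2 scale (edgeR adjusted p = 8.7e-09 and 2.96e-05).

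CCND2, the third D-type cyclin, was scarce, and only in NOMO1 were there enough counts to test it. NOMO1 DMSO libraries held 23, 23 and 11 counts at day 3 and 20, 27 and 17 at day 6. Those of VTP-50469 held 86, 95 and 130 at day 3 and 137, 173 and 84 at day 6, and those of the combination 125, 146 and 134 at day 3 and 167, 136 and 90 at day 6. All 12 libraries with VTP-50469 stood above all others of the line, with 4.54 to 7.69 CPM against 0.672 to 3.01 CPM. Fitted log2 fold changes were 2.31 ± 0.301 and 2.64 ± 0.296 for VTP-50469 at day 3 and day 6 (edgeR adjusted p = 2.79e-07 and 2.39e-08), and 2.53 ± 0.299 and 2.80 ± 0.296 for the combination (3.29e-08 and 5.02e-09). Selumetinib alone (33, 43 and 52 counts) was at 1.20 ± 0.314 (0.00196). Against DMSO day 6 the day 3 values were 2.51 for VTP-50469 and 2.73 for the combination, and selumetinib was at 1.41, all called. Between the combination and VTP-50469 the difference was 0.22 ± 0.257 at day 3 and 0.16 ± 0.255 at day 6, and neither passed. In OCI-AML3 the 3 libraries of a group held 14 to 22 CCND2 counts together without selumetinib or with selumetinib alone, and 2 counts in the combination at each day. The ratio to DMSO was 7.23-fold lower at day 3 (95% exact binomial interval 1.66 to 65.6, counting error only) and 9.99-fold lower at day 6 (2.46 to 87.6). Part of CCND2 is also annotated to AC008012.1 on the same strand, which shares 989 of its exon bases (13.8%).

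Summed over the 3 cyclins, D-type cyclin RNA in OCI-AML3 went from 64 ± 2.88 CPM per kb at DMSO day 3 to 30.3 under selumetinib (28.4 to 32.6 over 3 libraries) and 34.3 ± 2.99 under the combination, and from 62.9 ± 0.706 at DMSO day 6 to 42.6 ± 3.38 (SD, n = 3). CCND1 made up 30.2% of this sum at DMSO day 3, 15.3% under selumetinib, 3.66% under the combination at day 3 and 7.89% at day 6. Under the combination the sum was nearly all CCND3. In NOMO1 the sum was 48.3 ± 2.83 and 71.4 ± 2.43 CPM per kb in the DMSO groups, 106 ± 19.5 and 113 ± 1.24 under VTP-50469, and 47.1 ± 1.48 and 61.3 ± 2.15 under the combination. The CCND1 share was 21.9% and 17.2% under DMSO, 1.79% under selumetinib, and 3.85% and 5.71% under the combination. CCND2 reached at most 1.81% of the sum, in the NOMO1 combination at day 3. These shares depend on the exon length used, since CCND3 has 5802 bases in the union of its exons and 2394 in its longest transcript; with longest transcripts CCND1 held 14.7% of the OCI-AML3 sum at DMSO day 6 and 3.82% under the combination.

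**Figure D3:**
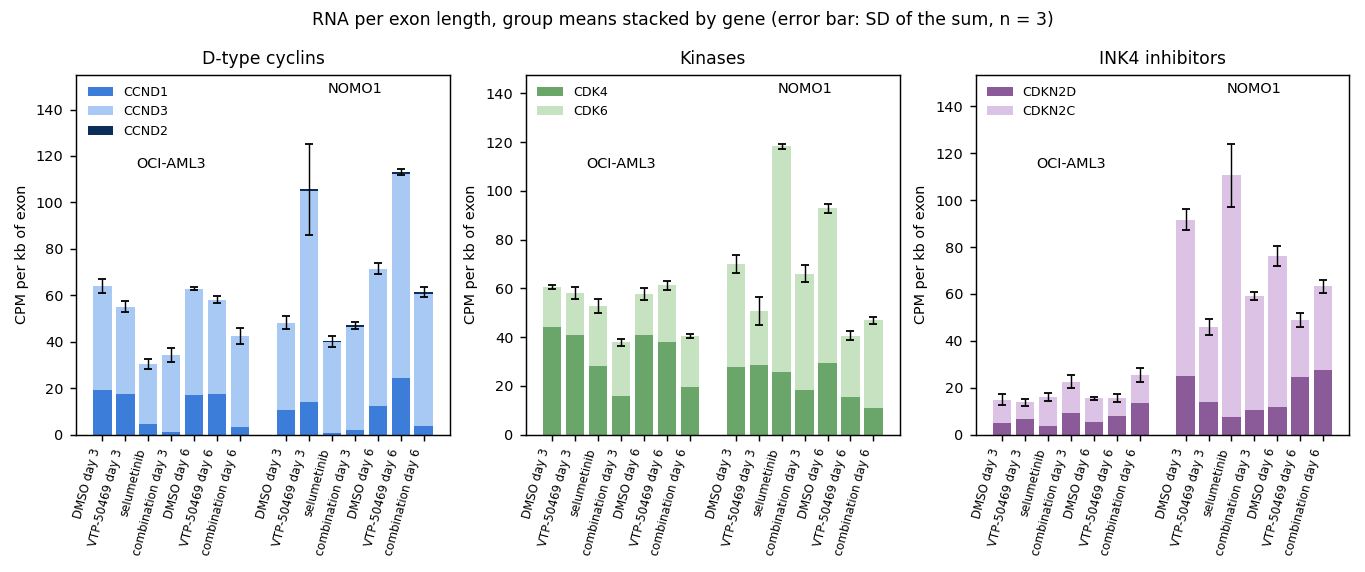
Mean CPM per kb of exon in each group (bars from 0, stacked by gene, error bar for the SD of the sum over 3 libraries), OCI-AML3 on the left and NOMO1 on the right of each panel. Panels show the D-type cyclins, the kinases and the INK4 inhibitors CDKN2C and CDKN2D. Other INK4 genes, CDKN2A among them, are outside the set and not in this sum. The CCND1 segment shrinks in every group with selumetinib, and in NOMO1 the kinase sum ranges from 40.6 (VTP-50469 day 6) to 118 (selumetinib).

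CDK4 fell under the combination in both lines. In OCI-AML3 its libraries had 145, 138 and 137 CPM at DMSO day 3, 102, 78.6 and 89 under selumetinib, and 49.2, 46.3 and 55.8 under the combination at day 3. At day 6 they had 122, 132 and 135 under DMSO and 59.6, 62.4 and 65.1 under the combination. DMSO day 3, selumetinib (of uncertain time) and the combination at day 3 formed steps without overlap. The log2 fold change was -0.65 ± 0.0825 for selumetinib (edgeR adjusted p = 4.32e-07), -1.47 ± 0.0847 for the combination at day 3 (1.85e-14) and -1.02 ± 0.0841 at day 6 (2.9e-11). VTP-50469 alone was at -0.11 ± 0.0818 and -0.11 ± 0.0821, which did not pass.

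In NOMO1 CDK4 fell under the combination at both days and under VTP-50469 at day 6. DMSO libraries had 86.2, 95.9 and 95.5 CPM at day 6, VTP-50469 48.9, 51.1 and 45.1, and the combination 36.9, 35.1 and 30.3, again without overlap. The log2 fold change at day 6 was -0.94 ± 0.0841 for VTP-50469 (edgeR adjusted p = 4.46e-10) and -1.41 ± 0.0859 for the combination (9.28e-14). At day 3 VTP-50469 was at 0.02 ± 0.0831, which did not pass, and the combination at -0.59 ± 0.0839 (6.81e-07; -0.66 against DMSO day 6). Selumetinib alone gave -0.13 ± 0.0835, which did not pass against either control; scaled by library totals, which moved the median of all genes in this comparison by 0.37, it turned to 0.24. TSPAN31 lies over 43.2% of the CDK4 exon length on the other strand, so the 2 genes could share reads. In NOMO1 at day 6 TSPAN31 rose by 0.44 ± 0.126 under VTP-50469 and 0.77 ± 0.126 under the combination on the log2 scale (edgeR adjusted p = 0.0046 and 7.22e-06). The part of shared reads in the CDK4 values was not tested.

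CDK6 moved in opposite directions in the lines under VTP-50469 at day 6 and rose under selumetinib alone in both. OCI-AML3 libraries had 187, 216 and 199 CPM at DMSO day 3 and 204, 201 and 209 at day 6, against 290, 316 and 294 under selumetinib and 283, 265 and 308 under VTP-50469 at day 6. All of these treated libraries lay above all DMSO libraries. On the log2 scale these were rises of 0.57 ± 0.12 for selumetinib (edgeR adjusted p = 0.00101) and 0.48 ± 0.12 for VTP-50469 at day 6 (0.00338). At day 3 VTP-50469 replicate 2 had 276 CPM and its partners 173 and 178, and the difference of 0.06 ± 0.12 (-0.20 without replicate 2) did not pass. The combination gave 255, 294 and 260 CPM at day 3 and 251, 261 and 250 at day 6, or 0.43 ± 0.12 (0.00547) and 0.34 ± 0.12 (0.0227). The day 6 call was lost on leaving out any 1 of the 6 libraries compared (0.29 to 0.35, edgeR adjusted p = 0.0507 to 0.0806).

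NOMO1 CDK6 spanned the widest range of the kinases. DMSO libraries had 536, 487 and 521 CPM at day 3 and 806, 790 and 743 at day 6. Selumetinib gave 1150.5, 1140.5 and 1114 CPM, the highest of all 42 libraries, while VTP-50469 gave 206, 309 and 294 at day 3 and 332, 297 and 303 at day 6, below every DMSO library. The combination stood between, at 554, 619 and 584 CPM at day 3 and 454, 429 and 446 at day 6. The log2 fold change for selumetinib was 1.12 ± 0.0944 (edgeR adjusted p = 1.04e-10; 0.53 ± 0.0934 against DMSO day 6). Against VTP-50469 the combination was higher by 1.15 ± 0.0948 at day 3 (5.35e-10) and 0.54 ± 0.0939 at day 6 (7.56e-05), so selumetinib went with more CDK6 RNA with and without VTP-50469. The combination at day 3 was at 0.19 ± 0.0934 against DMSO day 3, which did not pass, and at -0.40 ± 0.0934 against DMSO day 6; at day 6 it was lower by 0.79 (edgeR adjusted p = 5.2e-08). Per kb of exon union, CDK6 made up 27% of the kinase sum in OCI-AML3 at DMSO day 3 and 58% under the combination at day 3. In NOMO1 it made up between 43.2% (VTP-50469 day 3) and 78.3% (selumetinib). With longest transcripts these shares were 20.4% and 48.9% in OCI-AML3, and 34.5% and 71.4% in NOMO1. Which kinase led in OCI-AML3 under the combination at day 3 thus depended on the length used.

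CDKN1B, which encodes p27, rose under the combination in both lines. OCI-AML3 libraries had 79.4, 66.5 and 70.3 CPM at DMSO day 3 and 63.1, 70.7 and 64.2 at day 6, against 92.1, 105 and 98 under the combination at day 3 and 98.1, 90.7 and 101 at day 6. The groups did not overlap, and the log2 fold change was 0.45 ± 0.0804 (edgeR adjusted p = 2.6e-05) and 0.58 ± 0.081 (5.85e-07). VTP-50469 at day 6 gave 0.29 ± 0.0809 (0.00512). Selumetinib, at 0.21 ± 0.0805, did not pass (0.0514) but did without its replicate 1 (0.27) or DMSO replicate 1 (0.28). In NOMO1 the highest levels were those of the combination at day 6, 127, 126 and 123 CPM, against 92.4, 96.6 and 88.8 under VTP-50469 and 69.8, 74.1 and 64.8 under DMSO. The log2 fold change was 0.88 ± 0.0747 for the combination (6.87e-11) and 0.41 ± 0.0745 for VTP-50469 (3.86e-05). Against DMSO day 3, NOMO1 CDKN1B rose by 0.44 ± 0.076 under selumetinib, of uncertain time, and by 0.49 ± 0.0756 under the combination at day 3. Neither passed against DMSO day 6 (0.13 and 0.18, edgeR adjusted p = 0.219 and 0.0506).

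CDKN2C, the INK4 inhibitor p18, fell under VTP-50469 in both lines and was higher in the combination than under VTP-50469 alone. In NOMO1 it had 213, 199 and 227 CPM at DMSO day 6, 78.3, 83.2 and 78 under VTP-50469 and 116, 122 and 115 under the combination, 3 levels without overlap. The log2 fold change at day 6 was -1.42 ± 0.115 for VTP-50469 (edgeR adjusted p = 5.16e-10) and -0.83 ± 0.114 for the combination (1.28e-06). At day 3 they were -1.09 ± 0.115 and -0.45 ± 0.113, and against DMSO day 6 -1.03 and -0.38. Selumetinib alone gave 373, 358 and 295 CPM, above every other library of the line, at 0.61 ± 0.113 (7.32e-05) and at 0.67 against DMSO day 6. In OCI-AML3 levels were lower: 33.5, 32.6 and 36.2 CPM at DMSO day 6 and 25.9, 26.6 and 23.3 under VTP-50469, a change of -0.43 ± 0.123 (0.00618). The day 3 change of -0.49 ± 0.122 (0.00768) lost its call without DMSO replicate 1 (-0.43) or VTP-50469 replicate 1 (-0.40). The combination exceeded VTP-50469 by 0.89 ± 0.122 at day 3 (6.02e-07) and 0.67 ± 0.123 at day 6 (5.74e-05). Against DMSO day 3 it was called at 0.40 ± 0.12 (0.00669; lost without combination replicate 3, 0.30, or DMSO replicate 3, 0.29), and at day 6, at 0.24 ± 0.121, it did not pass.

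CDKN2D, the INK4 inhibitor p19, was called lower at day 3 and higher at day 6 in NOMO1, where its 2 controls also differed. DMSO libraries had 37, 40.1 and 34.8 CPM at day 3 and 19.2, 17.1 and 17.2 at day 6, a difference of -1.07 ± 0.152 (edgeR adjusted p = 1.2e-06). At day 6 VTP-50469 gave 38, 40.2 and 33.3 CPM and the combination 42.8, 43.8 and 38.6, rises of 1.06 ± 0.151 (1.36e-06) and 1.26 ± 0.151 (5.92e-08). At day 3 VTP-50469 gave 28.8, 15.8 and 18.8 CPM and the combination 16.8, 17.1 and 13, or -0.84 ± 0.152 (3.49e-05) and -1.25 ± 0.153 (7.56e-08) against DMSO day 3. Against DMSO day 6 neither passed, at 0.23 ± 0.154 and -0.17 ± 0.155. Selumetinib was lowest, at 11.9, 12.4 and 9.73 CPM, and was lower against both controls (-1.74 ± 0.16 and -0.67 ± 0.16; 5.6e-10 and 0.00201). In OCI-AML3 the combination raised it from 6.66, 9.16 and 5.91 CPM to 12.5, 12.9 and 16.5 at day 3 and from 8.02, 7.72 and 7.69 to 20.1, 17.6 and 23.8 at day 6. These groups did not overlap, and the log2 fold change was 0.94 ± 0.183 (7.8e-05) and 1.42 ± 0.184 (1.65e-07). VTP-50469 at day 6 gave 0.62 ± 0.184 (0.00852), a call lost without VTP-50469 replicate 2 (0.53, edgeR adjusted p = 0.0523), and at day 3 0.44 ± 0.185, which passed only without DMSO replicate 2 (0.65).

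RB1, the substrate, changed by at most 0.59 on the log2 scale in the comparisons with a control of the same day. In OCI-AML3 VTP-50469 at day 6 gave 106, 95.3 and 102 CPM against 71, 66.7 and 63.7 under DMSO, a rise of 0.59 ± 0.115 (edgeR adjusted p = 0.000184) with no overlap. The combination was at 0.42 ± 0.115 at day 3 (0.0036; 0.26 without combination replicate 2, at 98.8 CPM against 74.3 and 75.2, and then not called) and 0.35 ± 0.115 at day 6 (0.0126; lost without combination replicate 2, 0.27, or DMSO replicate 3, 0.31). VTP-50469 at day 3 was at 0.31 ± 0.115, not passing, but it passed without VTP-50469 replicate 1 (0.41) or 3 (0.38) and was at 0.11 without replicate 2, the library that stood apart at 96.3 CPM. In NOMO1 DMSO itself went from 63.1, 67.5 and 63.3 CPM at day 3 to 137, 151 and 120 at day 6, a rise of 1.07 ± 0.0885 (8.55e-11). Against DMSO day 3, VTP-50469 at day 3 was higher by 0.23 ± 0.0888 (0.029). That call was lost without VTP-50469 replicate 1 (0.15) or DMSO replicate 1 (0.22) or 3 (0.23). Selumetinib, of uncertain time, was higher by 0.46 ± 0.0888 (7.65e-05) and the combination at day 3 by 0.29 ± 0.0885 (0.00627). Against DMSO day 6 all 3 turned, to -0.84, -0.61 and -0.78. At day 6 VTP-50469 was at 0.24 ± 0.0862 (0.0243; lost without any 1 of 5 of the 6 libraries, all but DMSO replicate 2, at 0.13 to 0.24) and the combination at -0.07 ± 0.0865, which did not pass.

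Selumetinib added to VTP-50469 was read by comparing the combination with VTP-50469 of the same day. In OCI-AML3 this called 4 of the 8 genes higher and 3 lower at day 3 (42.2% of all genes called) and 3 higher and 2 lower at day 6 (41.3%). CCND1 (-3.80 ± 0.237 and -2.36 ± 0.216) and CDK4 (-1.36 ± 0.0845 and -0.91 ± 0.084) fell at both days, and CDKN1B (0.38 ± 0.0802 and 0.29 ± 0.0804) rose at both. CDKN2D rose by 0.50 ± 0.18 at day 3 and 0.80 ± 0.179 at day 6; the day 3 call was lost without combination replicate 3 (0.36) or VTP-50469 replicate 3 (0.40). At day 3 CDK6 was called at 0.37 ± 0.12, which was lost without combination replicate 2 (0.29) or VTP-50469 replicate 1 (0.24) or 3 (0.26) and was 0.62 without VTP-50469 replicate 2. At day 6 CDK6 was at -0.14 ± 0.12 (edgeR adjusted p = 0.393) and did not pass, although all 3 combination libraries lay below all 3 of VTP-50469. CCND3, at -0.19 ± 0.0731 at day 3, lost its call without combination replicate 1 (-0.15) or 2 (-0.16) or VTP-50469 replicate 2 (-0.15), and RB1, at 0.11 ± 0.114, gained one without VTP-50469 replicate 2 (0.31).

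In NOMO1 the same comparison called 3 of the 9 higher and 4 lower at day 3 (35.2% of all genes) and 3 higher and 4 lower at day 6 (27.6%), and no DMSO library enters it. CCND1 (-2.94 ± 0.109 and -2.78 ± 0.104) and CDK4 (-0.61 ± 0.0837 and -0.47 ± 0.086) fell at both days. CDKN1B (0.34 ± 0.0752 and 0.47 ± 0.074) and CDKN2C (0.65 ± 0.114 and 0.59 ± 0.115) rose at both, as they did in OCI-AML3. CDKN2D was called lower at day 3 (-0.40 ± 0.155, edgeR adjusted p = 0.0444), but not without VTP-50469 replicate 1 (-0.12) or combination replicate 1 (-0.45) or 3 (-0.29). RB1 was called lower at day 6 (-0.31 ± 0.0864, 0.00763), but not without combination replicate 1 (-0.23).

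The interaction at day 3 is the effect of selumetinib in the presence of VTP-50469 minus its effect alone, on the log2 scale, where 0 means that the drugs' changes add. In OCI-AML3 it called 3 of the 8 genes higher and 2 lower (8.94% of all genes called). CCND1 was lower than additive by 1.76 ± 0.308 (edgeR adjusted p = 0.00146; -1.30 without selumetinib replicate 1) and CDK4 by 0.71 ± 0.117 (0.000164). CCND3 was above additive at 0.62 ± 0.104 (0.000168). CDKN2C (0.63 ± 0.171, 0.0171) and CDKN2D (0.85 ± 0.261, 0.0368) were called too. CDKN2C lost its call on leaving out combination replicate 3, DMSO replicate 1 or 2, selumetinib replicate 1 or VTP-50469 replicate 1 (0.52 to 0.57). CDKN2D lost its call without combination replicate 3, DMSO replicate 2, selumetinib replicate 1 or 2, or VTP-50469 replicate 1 or 3 (0.63 to 0.87). With DMSO day 6 as control the same 5 genes were called, 3 higher and 2 lower (8.66% of all genes).

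In NOMO1 the interaction called 2 of the 9 genes higher and 3 lower (37% of all genes called) with DMSO day 3, and 3 higher and 2 lower (13.9%) with DMSO day 6. CCND1 was above additive with either control, at 0.95 ± 0.166 with DMSO day 3 (edgeR adjusted p = 4.9e-05) and 1.17 ± 0.165 with DMSO day 6 (2.34e-05), and CDK4 below it, at -0.48 ± 0.118 (0.00209) and -0.41 ± 0.118 (0.0177). CDKN2D (1.34 ± 0.221) and CCND3 (-1.04 ± 0.136) were called with DMSO day 3 and not with DMSO day 6 (0.26 ± 0.223 and -0.39 ± 0.135). RB1 turned from -0.40 ± 0.125 to 0.67 ± 0.124. CDK6, at 0.02 ± 0.132 with DMSO day 3, was 0.62 ± 0.132 with DMSO day 6 and -0.38 under scaling by library totals, which moved the median of all genes by -0.40. CCND2, at -0.98 ± 0.406, did not pass (0.059) but was -1.19 ± 0.402 with DMSO day 6 (0.0481) and passed without DMSO replicate 2 (-1.17), selumetinib replicate 1 (-1.25) or VTP-50469 replicate 2 (-1.09). With 1 DMSO group shared by these comparisons they are not independent.

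Responses were also set against each other between the lines, in 1 fit over all 42 libraries with 18707 genes tested. The VTP-50469 effect at day 6 differed for 6 of the 9 genes, 3 of them with a higher value in NOMO1 (CCND1, CCND2, CCND3) and 3 with a lower one (CDK4, CDK6, CDKN2C), where 33.4% of all genes differed. CCND2, too scarce to test in OCI-AML3 alone, passed the filter of this fit through its NOMO1 counts. Its calls between the lines, here and for the combination, are therefore not read as differences. CDK6 had the widest gap among the genes tested in both lines, with a log2 fold change lower in NOMO1 by 1.74 ± 0.159 (edgeR adjusted p = 2.18e-11). For selumetinib 5 were higher in NOMO1 and 2 lower (33.7% of all genes), and for the combination at day 6 3 were higher and 4 lower (34.9%). The selumetinib count depends on the control, since with DMSO day 6 only 2 of the 9 differed (9.61% of all genes), CDK4 at 0.38 ± 0.119 and CCND1 at -2.20 ± 0.256 (edgeR adjusted p = 0.0315 and 1.04e-07).

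The other genes of the restriction point, the G1 step that the set controls, were read from a list of 28: CDK2 and its cyclins, the remaining inhibitors, the pocket proteins RBL1 and RBL2, E2F and DP factors, the CDK-activating kinase and degradation factors such as SKP2. In OCI-AML3, where all 28 were tested, the combination called 5 higher and 20 lower at day 3 and 4 higher and 21 lower at day 6, with median log2 fold changes of -0.59 and -0.61. Over all genes the medians were 0.03 and 0.00, with 22.3% called higher and 25.8% lower at day 3 and 23.1% and 26.5% at day 6. CDC25A, the phosphatase that activates CDK2, fell by 2.43 at day 3 and 2.17 at day 6 on the log2 scale, E2F1 by 2.77 and 1.79, and TFDP1, a DP partner of E2F factors, by 0.82 and 0.63. Selumetinib alone called 2 higher and 16 lower (median -0.42), where 11.7% of all genes were higher and 15.6% lower. VTP-50469 called 5 higher and 1 lower at day 3 (6.49% and 4.42% of all genes) and 8 and 8 at day 6 (18.8% and 16% of all genes). CDKN2A, the INK4 and ARF locus, fell by 2.46 and CDKN1A (p21) rose by 1.13 under VTP-50469 at day 6. By longest transcript CDKN2A was at 12.5 ± 1.2 CPM per kb at DMSO day 3 (SD, n = 3), against 11.6 ± 1.5 for CDKN2C. By the exon union these were 3.71 ± 0.36 and 10.1 ± 1.3.

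In NOMO1, where 26 were tested, day 6 called 3 higher and 18 lower under VTP-50469 (median -0.40) and 5 higher and 17 lower under the combination (median -0.56). Of all genes 23.7% were higher and 25.1% lower under VTP-50469 and 27.3% and 28.2% under the combination, with medians of -0.01 and -0.00. CDKN1A rose by 2.35 and 1.94 and CDC25A fell by 1.09 and 1.69 on the log2 scale; CKS1B, a cofactor of SKP2 in p27 turnover, fell by 0.94 and 1.03. At day 3 against DMSO day 3, VTP-50469 called 17 higher and 6 lower (29.7% and 22.7% of all genes), led by the pocket protein RBL2 (1.70) and by E2F4 (1.12). The comparison of the DMSO days themselves had 17 higher and 3 lower (28.8% and 22.3% of all genes), also led by RBL2 (1.42) and E2F4 (0.92); the part of the control in the day 3 counts was not tested. The combination against VTP-50469 at day 3, free of DMSO, called 3 higher and 14 lower (median -0.47), where 15.9% of all genes were higher and 19.2% lower. At day 6 the same comparison called 3 higher and 8 lower, where 12.4% of all genes were higher and 15.2% lower. Its median was then -0.04, near the -0.01 of all genes. MKI67, a proliferation marker, was lower under selumetinib in OCI-AML3 (-0.51) and NOMO1 (-0.47) and higher under VTP-50469 at day 6 (0.42 and 0.39). Under the combination MKI67 was higher in OCI-AML3 at day 3 (0.28) and in NOMO1 at day 6 (0.46), and at 0.10 in OCI-AML3 at day 6 and -0.08 in NOMO1 at day 3 it did not pass, so none of its calls under the combination was lower.

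**Figure D4:**
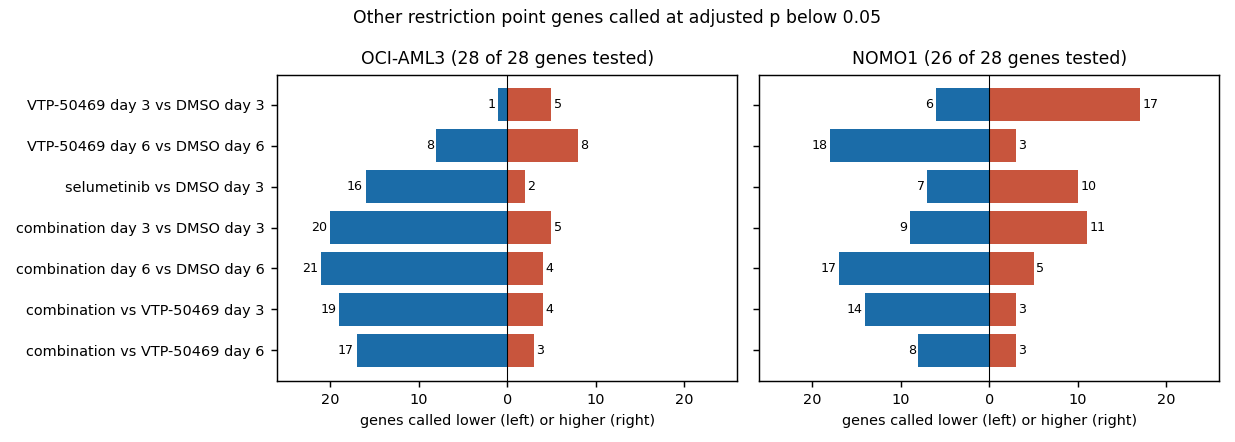
Number of the 28 other restriction point genes called lower (blue, to the left) and higher (red, to the right) in 7 comparisons of OCI-AML3 (28 tested) and NOMO1 (26 tested). The combination in OCI-AML3 and both day 6 comparisons with DMSO in NOMO1 hold mostly lower calls. The NOMO1 day 3 comparison of VTP-50469 with DMSO holds mostly higher ones.

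Genes whose pattern over the 21 libraries of a line was most like that of a cyclin or CDK6 were found by Pearson r of log2(CPM + 1), among genes with a mean of at least 5 CPM. The libraries share their treatments, so these values describe and test nothing. In OCI-AML3 the 3 nearest to CCND1 were UHRF1 (r = 0.986), CHEK1 (0.986) and E2F1 (0.983), all genes of S phase or its entry. In NOMO1 they were ETV5 (0.978), an ERK-responsive transcription factor, GATA2 (0.975) and CR2 (0.958). For CCND3 they were MCL1 (0.927), JUNB (0.916) and FAM3C (0.874) in OCI-AML3 and CORO1A (0.974), SLC9A3R1 (0.942) and KRT86 (0.941) in NOMO1. For CDK6 they were POLR2A (0.903), COL6A2 (0.899) and MAN1A1 (0.885) in OCI-AML3 and GGA2 (0.956), DUSP3 (0.945) and CAMK2D (0.943) in NOMO1. No gene was among the nearest 3 of the same member in both lines. Within the set CDK4 and CDKN1B ran opposite to each other in both lines, at r = -0.858 and -0.915 over 21 libraries each.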

How the data were processed

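RNA of 2 leukaemia lines was read in 42 libraries, 3 in each of 14 groups, from polyA-selected, unstranded paired-end libraries. The deposited values are whole-number counts per gene; STAR 2.11a, featureCounts of Subread 2.0.6 and the build hg38 are named per the submitters' processing notes, with FastQC 0.11.9, MultiQC 1.14 and DESeq2 1.44.0. Of 58870 rows, 1 lacked a value and was dropped, and 3 columns that match no sample were not used.

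Groups came from the sample labels. Counts were filtered (filterByExpr), scaled by TMM and tested with edgeR 4.0.16 (R 4.3.3, limma 3.58.1; robust quasi-likelihood test, Benjamini-Hochberg adjustment over all genes, called below 0.05), in 1 fit for the 7 groups of a line without a replicate block. DESeq2 1.42.0 served as an alternative. The procedure was also tested on simulated data for some of the comparisons. It found 16.4% to 52.2% of 1.5-fold changes and 72.7% to 87.9% of 4-fold changes, and 3.51% to 6.31% of its calls were false. A gene that did not pass may therefore still have changed. Per-kb levels used the union of exons in GENCODE 29, while the file header names another release. The members, the pathway list and the marker lists were chosen with earlier results of these data known. Named genes are the 9 members, up to 4 called pathway genes of smallest adjusted p in a comparison, the 3 genes nearest in pattern to CCND1, CCND3 and CDK6 (CCND2 lay below 5 CPM), and MEIS1, DUSP6 and MKI67 as checks; LTO1, TSPAN31 and other overlapping genes were chosen after their values were seen. Alternatives covered scaling, filters, the tool, the groups fitted, mitochondrial genes, the control day and each library left out.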

Additional observations from a re-analysis of the deposited data

Results flagged for a closer look

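Each value here is the log2 fold change in NOMO1 minus that in OCI-AML3 for the same treatment against DMSO, with its SE and its edgeR adjusted p. It was listed because the test of the difference between the lines passed.

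VTP-50469 at day 6 separated the lines in 6 genes. The difference was -1.74 ± 0.159 for CDK6 (2.18e-11), -0.76 ± 0.119 for CDK4 (1.32e-06) and -0.92 ± 0.171 for CDKN2C (3.53e-05), all lower in NOMO1. It was 0.82 ± 0.123 for CCND3 (5.93e-07), 1.02 ± 0.214 for CCND1 (0.000222) and 2.74 ± 0.73 for CCND2 (0.00254), which has 22 counts over the 3 OCI-AML3 libraries of each group. CCND2 was too scarce to test in OCI-AML3 alone and passed the filter of the joint fit through NOMO1. Its call is therefore not read as a difference between the lines.

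Selumetinib separated 7 genes with DMSO day 3 as control. NOMO1 was higher for CCND3 by 0.90 ± 0.124 (9.04e-08), for CDK4 by 0.57 ± 0.119 (0.000148), for CDK6 by 0.61 ± 0.158 (0.00219), for RB1 by 0.53 ± 0.149 (0.00393) and for CDKN1B by 0.28 ± 0.109 (0.042). It was lower for CCND1, at -1.79 ± 0.257 (5.01e-07; -1.32 without OCI-AML3 selumetinib replicate 1), and for CDKN2D, at -1.34 ± 0.249 (2.62e-05). With DMSO day 6 as control the differences of RB1 and CDKN1B changed sign, to -0.43 and -0.17, and only those of CDK4 (0.38) and CCND1 (-2.20) were called. With DMSO day 3 the CDKN1B call was lost without NOMO1 DMSO replicate 1, NOMO1 selumetinib replicate 1 or 2, OCI-AML3 DMSO replicate 1 or OCI-AML3 selumetinib replicate 1 or 2 (0.22 to 0.30). CDKN2C, not called, passed without NOMO1 selumetinib replicate 3 (0.51), OCI-AML3 DMSO replicate 3 (0.51) or OCI-AML3 selumetinib replicate 2 (0.47).

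The combination at day 6 separated 7 genes. CDK6 differed by -1.07 ± 0.158 (7.92e-07) and CDKN2C by -1.01 ± 0.169 (6.5e-06). CDKN1B differed by 0.36 ± 0.108 (0.00792), a call lost without OCI-AML3 combination replicate 2 (0.25). CCND2 had a fitted difference of 5.95 ± 0.94 (1.61e-06). OCI-AML3 had 2 counts in its combination libraries, so the size depends on the prior count and is no bound. Here too CCND2 passed the filter through NOMO1, and its call is not read as a difference. The other calls lay near the threshold, and each was lost on leaving out 1 of several libraries. CDK4, at -0.33 ± 0.121 (0.0284), lost its call without any 1 of 5 libraries (-0.30 to -0.25). CCND1, at 0.59 ± 0.229 (0.0417), lost it without any 1 of 8 (0.51 to 0.62), and RB1, at -0.37 ± 0.147 (0.0448), without any 1 of 8 (-0.38 to -0.28).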

How the results depend on the processing

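A result was kept when it stayed on its side of the threshold and, if either setting called it, also kept its direction. Of 180 results under each setting, 173 were kept with DESeq2, 172 with RLE size factors, 160 with library totals, 173 with no filter, 174 with a 1 CPM filter, 166 with only the compared groups fitted and 176 without mitochondrial genes. Leaving out 1 library at a time kept 1246 of 1344, with 82 calls lost, 16 gained and 0 reversed. Counts of members called ranged over these from 0 to 2 for OCI-AML3 VTP-50469 day 3 (1 with only the compared groups), 4 to 7 for the OCI-AML3 combination day 6, 3 to 5 for the OCI-AML3 interaction and 4 to 6 for the line difference in the combination at day 6.

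With DMSO day 6 as control 55 of 77 were kept. In NOMO1, VTP-50469 day 3 turned to 0.23 for CDKN2D and -0.84 for RB1, selumetinib to -0.61 for CCND3 and -0.61 for RB1, the combination day 3 to -0.40 for CDK6, -0.40 for CCND3 and -0.78 for RB1, and the interaction to 0.67 for RB1. The line difference under selumetinib turned to -0.17 for CDKN1B and -0.43 for RB1, with 2 members called. Library totals turned CDK4 under selumetinib to 0.24 and the CDK6 interaction to -0.38 in NOMO1, where 8 members were then called in the interaction. The cause was not tested.

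Replicate numbers did not pair the samples: correlations of same-numbered deviations lay between -0.156 and 0.112 in OCI-AML3 and between -0.158 and 0.123 in NOMO1, over 63 pairs each. A replicate block kept 179 of 180 results and added 1 call, CCND1 between the NOMO1 DMSO days (0.23). Depth limits CCND2 in OCI-AML3, at 0 to 11 counts per library.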
